A study of Mus musculus with 9 samples.

Results

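The genes described here encode the nuclear-made subunits of the oxidative phosphorylation complexes. They were chosen by gene symbol, as those beginning Nduf followed by a, b, c, s or v and a digit, Sdh followed by a, b, c or d, Uqcr, Cox followed by a digit from 4 to 8, or Atp5. This gave 83 genes of the 22376 symbols in the files, namely 35 of complex I, 4 of complex II, 8 of complex III, 20 of complex IV and 16 of complex V. Ndufa4 and Ndufa4l2 were placed with complex IV, where the Ndufa4 protein is known to sit. Of the 83 genes, 77 passed the filter on low values and were tested, among 13724 genes in all.

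Oxidative phosphorylation is carried out by 5 complexes of the inner mitochondrial membrane. Complex I passes electrons from NADH, and complex II from succinate, to ubiquinone. Complex III hands them to cytochrome c, complex IV to oxygen, and complex V uses the resulting proton gradient to make ATP. Most subunits are encoded in the nucleus and imported, and the remainder come from mitochondrial DNA and were not analysed here. Macrophages that respond to bacterial products are known to lean on glycolysis and to slow respiration.

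Wild-type C57Bl/6 mouse marrow was grown for 1 week with 10 ng/ml of macrophage colony-stimulating factor (M-CSF), and the resulting macrophages were washed free of it. They were then plated at 50000 cells per well for 48 h in 3 groups of 3 libraries. These were wells with 100 µg/ml of anti-PD-L1 antibody, directed at a surface ligand of PD-1, an inhibitory receptor of T cells (libraries 1 to 3), wells with 100 µg/ml of an irrelevant isotype-matched antibody (libraries 4 to 6), and untreated wells (libraries 7 to 9). All animals were described only as healthy, and no age was given. Whether the wells of a group trace back to different animals or cultures is not stated, and the p-values therefore reflect only sample-to-sample spread that may be technical. Exonic read equivalents, that is, average coverage times exon length over read length, came to 23316408 (untreated 7) to 39757425 (untreated 9) per library. The 10 macrophage markers were all measured, with a summed level of 23710 to 27950 CPM in PD-L1 antibody libraries, 21190 to 24850 CPM in isotype libraries and 19130 to 25210 CPM in untreated libraries. CPM are exonic read equivalents per 1e+06 after scaling by the trimmed mean of M values (TMM).

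In untreated macrophages the subunit genes ranged widely in level per kilobase of exon. Cox6a1, Cox4i1 and Cox8a of complex IV came first, at 375.4 ± 13.9, 356.3 ± 42.1 and 250.1 ± 10.4 CPM per kb (SD, n = 3), and Atp5b of complex V followed at 213.7 ± 13.1. Cox6a1 and Cox4i1 did not differ beyond their spread. The highest gene per kilobase was Ndufb7 in complex I (83.6 ± 5.02), Sdhd in complex II (77.8 ± 10.3) and Uqcr10 in complex III (108.6 ± 17). The lowest tested genes were Atp5s (1.49 ± 0.0958), an accessory factor of complex V, and the muscle isoform Cox7a1 (2.31 ± 0.326 CPM per kb). In complex I the lowest was Ndufa11, at 8.47 ± 0.641 CPM per kb. Only 52.6% of its listed exonic bases were covered, so its level per kb is understated. The same holds for Uqcrq, at 49.6%.

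The subunit genes moved little with the PD-L1 antibody. Atp5b, Atp5o, Atp5g3 and Cox5a rose and Atp5g2 fell in both comparisons, and these calls held under all 25 alternatives tried. Against the isotype antibody, 25 of the 77 tested genes rose (32.5%; 18.2% of all tested genes rose) and 1 fell (1.3%; 18.2% of all tested genes fell). Against untreated wells, 16 rose (20.8%; 22% of all tested genes) and 6 fell (7.79%; 20.5% of all tested genes). On the log2(CPM + 1) scale, which understates changes of low genes, none changed 2-fold or more in either comparison, whereas 8.07% of all tested genes did so against the isotype antibody and 8.71% against untreated wells. In mean CPM the low gene Cox6a2 exceeded that size against the isotype antibody, with 3.64 CPM in PD-L1 antibody wells and 1.475 CPM in isotype wells. The log2 fold changes spanned -0.38 to 0.93 against the isotype antibody, with a median of 0.18 beside -0.01 for all tested genes. They spanned -0.59 to 0.69 against untreated wells, with a median of 0.07 beside -0.01. Both comparisons share the PD-L1 antibody libraries and so are not independent of each other. The 3 PD-L1 antibody libraries lay above the other 6 for 26 genes (33.8%; 20.9% of all tested genes) and below them for 3, Atp5g2, Cox7a2l and Ndufb5 (3.9%; 19.2% of all tested genes).

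These counts depend on how the libraries are scaled. The TMM factors of the PD-L1 antibody libraries were 0.9191 to 0.9321, against 1.037 to 1.062 in the isotype libraries and 1.008 to 1.063 in the untreated ones. Scaled by total counts alone, the median of all tested genes moved to -0.16 against the isotype antibody and -0.13 against untreated wells. Then 10 subunit genes rose and 9 fell against the isotype antibody, where 11.4% of all tested genes rose and 30% fell. Against untreated wells 4 rose and 19 fell, where 14.2% of all tested genes rose and 29.6% fell. The subunit median stayed 0.16 and 0.05 above that of all tested genes, compared with 0.19 and 0.08 under TMM. By complex, total-count scaling gave 3 rises and 1 fall against the isotype antibody in complex V, 3 and 3 in complex IV, 1 and 0 in complex III, none in complex II, and 3 and 5 in complex I. Against untreated wells it gave 3 rises and 2 falls in complex V, 1 and 4 in complex IV, 0 and 3 in complex III, none in complex II, and 0 and 10 in complex I. In bulk RNA, fewer cells of a type and less RNA per cell cannot be told apart. Of the subunit genes that passed in either comparison, Atp5a1, Atp5j, Atp5o, Cox4i1, Cox5a, Cox6a2, Ndufa11, Ndufa9, Ndufb11, Ndufb6, Ndufb9, Uqcrb and Uqcrc2 share exonic bases with another gene in GENCODE M21, and Atp5g2, Atp5o, Cox7a2l, Ndufs3, Ndufs5 and Uqcrb have a near-identical copy elsewhere, so reads of the partners may be mixed into their values.

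**Figure D1:**
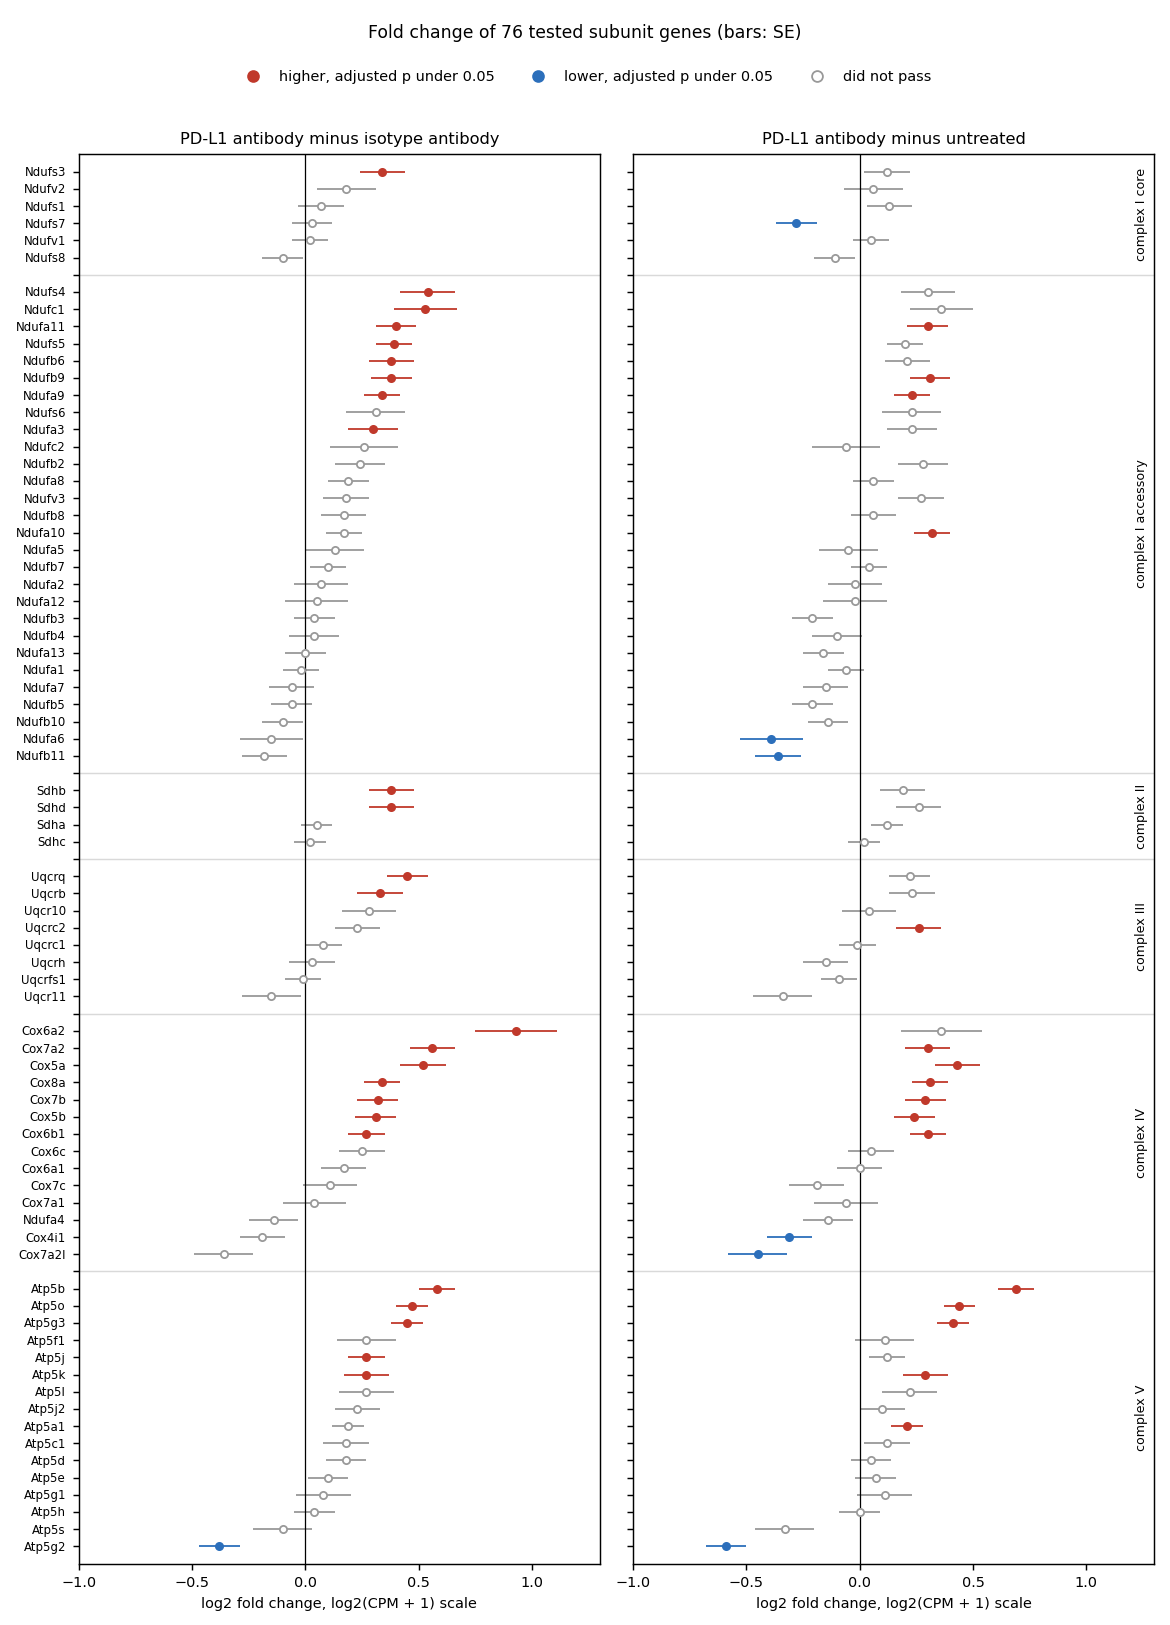
Log2 fold change (horizontal axis, log2(CPM + 1) scale) of 76 of the 77 tested subunit genes, by complex, for PD-L1 antibody minus isotype antibody (left) and PD-L1 antibody minus untreated (right). Points are estimates and bars are standard errors, red where higher and blue where lower at an adjusted p under 0.05, and open where the test was not passed; Atp5b and Atp5g2 lie at opposite ends of complex V in both panels.

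Summed over subunits, complex V had the largest rise of the 5 complexes. Its summed level was 1935, 1823 and 1861 CPM in the PD-L1 antibody libraries, against 1515, 1485 and 1486 CPM in the isotype libraries and 1458, 1527 and 1548 CPM in the untreated libraries. The means were 1.25 times the isotype mean and 1.24 times the untreated mean, and the PD-L1 antibody libraries did not overlap with the others. Much of this rise came from Atp5b alone, which averaged 649.1 CPM in PD-L1 antibody wells, 435.5 in isotype wells and 401.5 in untreated wells. Gene by gene, complex V did not stand apart. Its median log2 fold change was 0.21 against the isotype antibody and 0.12 against untreated wells. Complex IV had 0.26 and 0.15 and complex II 0.21 and 0.15, with lower medians in complexes I and III. Complex I summed to 1247 ± 43.1 CPM in PD-L1 antibody wells, 1140 ± 38.7 in isotype wells and 1236 ± 105 in untreated wells (SD, n = 3 each). Complex II summed to 483 ± 21.4, 425.9 ± 8.23 and 436.5 ± 24.7 CPM in the same order of groups. Complex III gave 491.1 ± 14.1, 433.5 ± 17.7 and 476.5 ± 45 CPM, and complex IV 1112 ± 43.1, 1029 ± 55.3 and 1112 ± 101 CPM. Under TMM, untreated library 7 was lower than libraries 8 and 9 in each of the 5 complexes, complexes II (408.2 CPM) and V (1458 CPM) included. Scaled by total counts alone, the ratios to the isotype mean were 1.11 for complex V, 0.968 for complex I, 1 for complexes II and III and 0.956 for complex IV. The ratios to the untreated mean were then 1.12 for complex V, 0.911 for complex I, 0.999 for complex II, 0.931 for complex III and 0.903 for complex IV.

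The share of each complex in the summed subunit level does not depend on scaling. Complex V made up 36, 36.1 and 35.8% of it in the PD-L1 antibody libraries, against 32.6, 32.9 and 33.7% in the isotype libraries and 33.1, 30.9 and 31.1% in the untreated libraries. Complex I made up 23.9 ± 0.156%, against 25.2 ± 0.21% and 25.9 ± 0.481% (SD, n = 3 each), and complex IV 21.4 ± 0.447%, against 22.7 ± 0.682% and 23.3 ± 0.579%, for the isotype and untreated groups in that order. The PD-L1 antibody libraries were thus the highest in complex V and the lowest in complexes I and IV, without overlap. Shares are parts of one sum, so the rise of an abundant gene such as Atp5b lifts complex V and presses down the others. Lower shares thus do not mean lower levels. The summed levels of complexes I and IV were above the isotype means under TMM (1247 and 1140 CPM, and 1112 and 1029 CPM). By total counts they were 0.968 and 0.956 times those means.

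**Figure D2:**
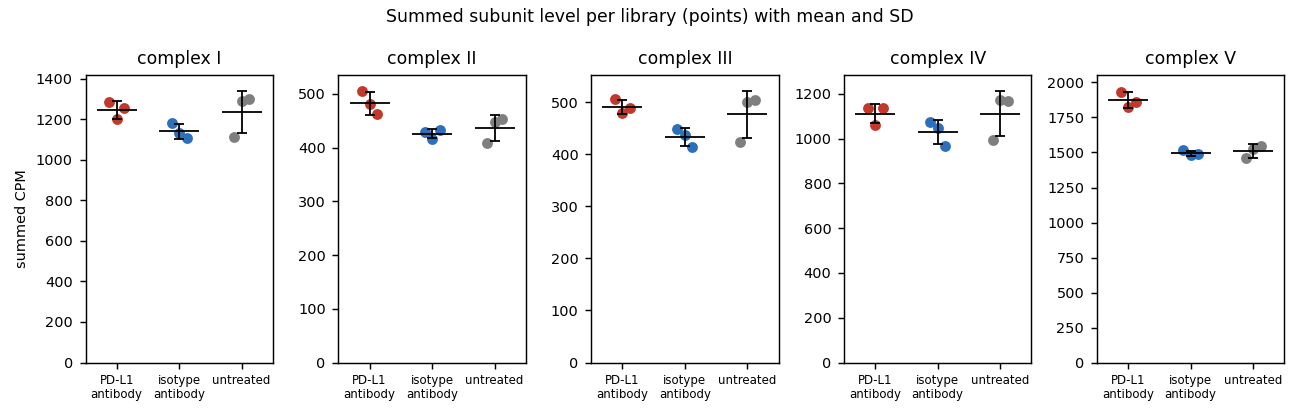
Summed CPM of the subunit genes of each complex (vertical axis, from 0) in each library (points), with the mean and SD of each group. Only in complex V do all 3 PD-L1 antibody libraries (1823 to 1935 CPM) lie above the other 6 by more than the spread within the groups.

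Of all tested genes, 18.2% rose and 18.2% fell against the isotype antibody, and 22% rose and 20.5% fell against untreated wells. These shares stand beside the counts by complex that follow. Complex V, the ATP synthase, had 5 genes that rose and 1 that fell out of 16 in each comparison. The largest rise was that of Atp5b (chr10:128083307-128090388, plus strand), which encodes the catalytic beta subunit of the F1 head. Atp5b had 677.4, 640.8 and 629 CPM in the PD-L1 antibody libraries, against 453.6, 410.4 and 442.7 CPM in the isotype libraries and 429.9, 385.4 and 389.3 CPM in the untreated libraries. Every PD-L1 antibody library exceeded every other library. The log2 fold change was 0.58 ± 0.08 (SE) against the isotype antibody, with an adjusted p of 0.000271, and 0.69 ± 0.08 against untreated wells, with an adjusted p of 6.63e-05. Atp5a1, which encodes the alpha subunit that alternates with beta in the head, passed only against untreated wells, at 0.21 ± 0.07 with an adjusted p of 0.037. Against the isotype antibody its log2 fold change was 0.19 ± 0.07, with an adjusted p of 0.0572. Atp5c1, the gamma subunit that turns inside the head, and Atp5d and Atp5e, the delta and epsilon subunits of its stalk, did not pass in either comparison.

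Atp5o encodes the oligomycin sensitivity conferral protein, which ties the head to the side stalk. Atp5o had 61.2, 56.7 and 57.9 CPM in the PD-L1 antibody libraries, against 42.4, 42 and 41.7 CPM in the isotype libraries and 40.8, 44.4 and 43.1 CPM in the untreated libraries. Its PD-L1 antibody libraries did not overlap with the others. It rose by a log2 fold change of 0.47 ± 0.07 against the isotype antibody (adjusted p 0.000454) and 0.44 ± 0.07 against untreated wells (adjusted p 0.000579). Its exons share bases with antisense transcripts, and whether counting used strand is not stated, so reads of the partners cannot be told apart. Atp5k, the membrane subunit e, also rose in both comparisons, by 0.27 ± 0.10 and 0.29 ± 0.10. Atp5j, coupling factor F6 of the side stalk, passed against the isotype antibody alone, at 0.27 ± 0.08 beside 0.12 ± 0.08 against untreated wells, a difference that was not tested. Atp5a1 missed the threshold against untreated wells without library PD-L1 antibody 1 or 3, isotype 4, 5 or 6 or untreated 8 or 9 (log2 fold change 0.18 to 0.22). Atp5k did not pass against the isotype antibody without library PD-L1 antibody 1, 2 or 3, isotype 4, 5 or 6 or untreated 8 or 9 (log2 fold change 0.25 to 0.31), and against untreated wells without library PD-L1 antibody 1 or 3 or untreated 8 or 9 (log2 fold change 0.24 to 0.28). Atp5j missed the threshold against the isotype antibody without library PD-L1 antibody 2 or 3 or isotype 5 or 6 (log2 fold change 0.24 to 0.28). Under total-count and under upper-quartile scaling, Atp5a1, Atp5k and Atp5j lost each of these calls.

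The rotor ring of the ATP synthase is built of subunit c, which is made from Atp5g1, Atp5g2 and Atp5g3. These genes encode the same mature protein with different import sequences, and Atp5g2 and Atp5g3 moved in opposite directions. Their promoter sequences are given here with those of Atp5b, the complex V gene with the largest rise, and of the complex IV pair Cox7a2 and Cox7a2l described further on. Each runs from 250 bases before to 50 bases after the start in RefSeq, on GRCm38.p6, and capitals mark matches to the NRF1 motif (GCGCA followed directly by its reverse complement) or to GGGCGG (Sp1) on either strand.
Atp5g1 (chr11:96075582-96075881, minus strand): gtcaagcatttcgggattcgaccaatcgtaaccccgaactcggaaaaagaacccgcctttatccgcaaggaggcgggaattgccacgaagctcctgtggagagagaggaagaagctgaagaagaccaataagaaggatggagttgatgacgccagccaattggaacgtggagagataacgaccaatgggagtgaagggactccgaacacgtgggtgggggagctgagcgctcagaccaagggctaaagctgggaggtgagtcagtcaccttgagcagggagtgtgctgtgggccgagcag
Atp5g2 (chr15:102670998-102671297, minus strand): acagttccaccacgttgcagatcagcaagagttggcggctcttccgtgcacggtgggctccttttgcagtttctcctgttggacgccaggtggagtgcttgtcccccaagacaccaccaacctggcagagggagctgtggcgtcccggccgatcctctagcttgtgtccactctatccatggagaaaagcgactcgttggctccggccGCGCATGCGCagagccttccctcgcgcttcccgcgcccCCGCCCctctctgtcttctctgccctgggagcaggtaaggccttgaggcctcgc
Atp5g3 (chr2:73911277-73911576, minus strand): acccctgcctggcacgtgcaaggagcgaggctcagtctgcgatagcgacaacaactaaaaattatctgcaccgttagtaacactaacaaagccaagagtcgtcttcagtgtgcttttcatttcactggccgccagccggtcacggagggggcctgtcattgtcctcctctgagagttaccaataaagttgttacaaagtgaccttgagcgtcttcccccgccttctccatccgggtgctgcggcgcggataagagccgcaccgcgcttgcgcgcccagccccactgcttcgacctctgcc
Atp5b (chr10:128083057-128083356, plus strand): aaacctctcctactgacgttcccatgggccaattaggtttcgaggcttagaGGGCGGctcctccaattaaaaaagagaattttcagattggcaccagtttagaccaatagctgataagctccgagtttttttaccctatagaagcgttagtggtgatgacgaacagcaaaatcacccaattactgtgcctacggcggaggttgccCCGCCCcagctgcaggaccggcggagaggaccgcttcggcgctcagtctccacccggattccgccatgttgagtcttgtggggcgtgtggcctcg
Cox7a2 (chr9:79759804-79760103, minus strand): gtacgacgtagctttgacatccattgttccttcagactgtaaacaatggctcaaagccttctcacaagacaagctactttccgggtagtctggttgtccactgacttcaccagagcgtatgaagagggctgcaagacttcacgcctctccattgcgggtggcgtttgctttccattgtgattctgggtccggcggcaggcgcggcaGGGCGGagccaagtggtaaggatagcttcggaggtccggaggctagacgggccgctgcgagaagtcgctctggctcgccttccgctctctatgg
Cox7a2l (chr17:83514284-83514583, minus strand): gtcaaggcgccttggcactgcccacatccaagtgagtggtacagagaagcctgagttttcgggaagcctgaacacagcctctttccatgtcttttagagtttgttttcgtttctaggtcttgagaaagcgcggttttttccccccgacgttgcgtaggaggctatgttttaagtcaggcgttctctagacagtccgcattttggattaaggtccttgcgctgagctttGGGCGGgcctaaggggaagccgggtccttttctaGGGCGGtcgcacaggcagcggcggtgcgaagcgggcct

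Among the subunit c promoters, only that of Atp5g2 held the NRF1 letters, from position -42 relative to the start. NRF1 is a transcription factor known to act on many respiratory chain genes. Atp5g1 and Atp5g3 held no exact match to the 5 motifs searched. Near matches were not counted, such as gcgcttgcgc in the Atp5g3 window beside the NRF1 letters. The Atp5g1 window is set by another start than that of the measured transcript, at 96075694. Over the 68 subunit genes matched in the RefSeq promoter table, 6.85% of 73 promoter windows held the NRF1 motif, compared with 0.971% of all 32851 windows of this length. CCGGAAG (the ETS core bound by GABP, either strand) was in 21.9% beside 8.86% of all windows, and AAGATGGCG (YY1) in 9.59% beside 1.4%. GGGCGG was in 39.7% beside 35.7%, and TATAAA in 11% beside 13.6%. The motifs were matched by letter on both strands, and a match does not show binding.

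Atp5g2 had 43.9, 39.7 and 44.5 CPM in the PD-L1 antibody libraries, against 55.2, 58.4 and 54.2 CPM in the isotype libraries and 59.9, 70.8 and 63.6 CPM in the untreated libraries. Atp5g2 (chr15:102662868-102671047, minus strand) was thus lower in every PD-L1 antibody library than in any other, and it fell, with a log2 fold change of -0.38 ± 0.09 against the isotype antibody (adjusted p 0.00478) and -0.59 ± 0.09 against untreated wells (adjusted p 0.00027). Atp5g3 had 108.6, 104.3 and 101 CPM in the PD-L1 antibody libraries, against 74.2, 74.3 and 80.1 CPM in the isotype libraries and 74.8, 78.6 and 81.5 CPM in the untreated libraries. Atp5g3 (chr2:73908447-73911326, minus strand) went the other way without overlap and rose by 0.45 ± 0.07 (adjusted p 0.00055) and 0.41 ± 0.07 (adjusted p 0.000871). Atp5g1 (chr11:96072793-96075694, minus strand) was the lowest of the family and did not pass, at 0.08 ± 0.12 and 0.11 ± 0.12.

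Within the family, levels per kilobase give shares that do not depend on the scaling of libraries. Atp5g2 contributed 27.5, 26.1 and 28.4% in the PD-L1 antibody libraries, against 40, 41 and 37.9% in the isotype libraries and 41.4, 45 and 41.5% in the untreated libraries. Atp5g3 contributed 64.7 ± 2.16% in PD-L1 antibody wells, 52.1 ± 1.84% in isotype wells and 49.8 ± 1.51% in untreated wells (SD, n = 3 each). Atp5g1 contributed 8 ± 1.32, 8.27 ± 0.336 and 7.6 ± 1.08%. The family sum was 241.3 ± 5.84 CPM per kb in PD-L1 antibody wells, 218.1 ± 4.33 in isotype wells and 234.6 ± 9.8 in untreated wells, so the make-up of the family shifted more than its sum. Atp5g2 has 2 near-identical pseudogene copies in GENCODE M21 and Atp5g1 has 1, and the authors' counting could split reads between them, so these shares carry that uncertainty.

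**Figure D3:**
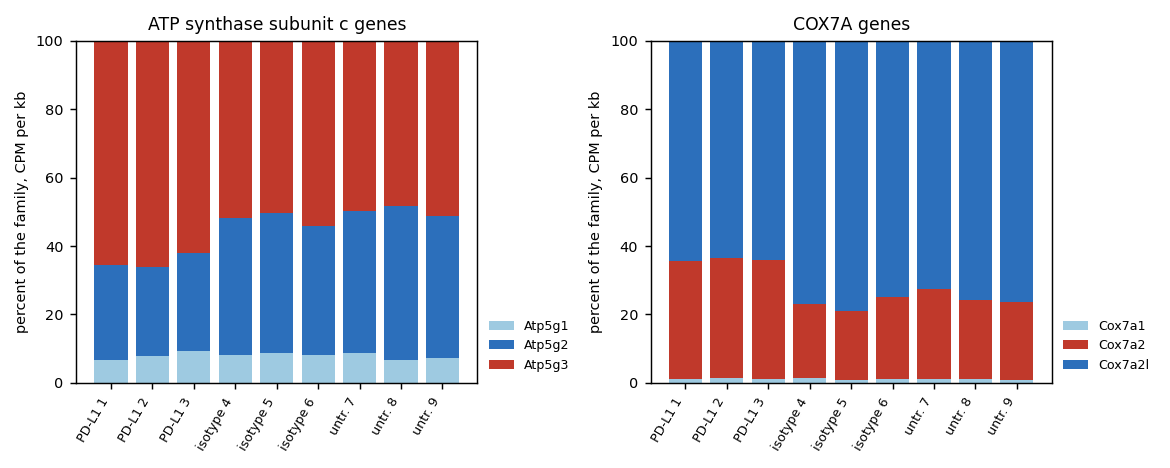
Share of each gene in its family (vertical axis, percent of the summed CPM per kb) in each of the 9 libraries, for the ATP synthase subunit c genes (left) and the COX7A genes (right). Atp5g2 makes up 26.1 to 28.4% in the PD-L1 antibody libraries, and 37.9% or more in all others; Cox7a2 makes up 34.5 to 35.1%, and 26.1% or less in all others.

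In complex IV, cytochrome c oxidase, 7 of 14 tested genes rose against the isotype antibody and none fell, while 6 rose and 2 fell against untreated wells. Cox5a, a subunit on the matrix side, rose in both. Cox5a had 84.8, 80.7 and 73.8 CPM in the PD-L1 antibody libraries, against 60, 52 and 53.7 CPM in the isotype libraries and 52.1, 60.9 and 63.9 CPM in the untreated libraries. The PD-L1 antibody libraries of Cox5a did not overlap with the others. The log2 fold change was 0.52 ± 0.10 against the isotype antibody (adjusted p 0.0016) and 0.43 ± 0.10 against untreated wells (adjusted p 0.00441). Its partner Cox5b rose by 0.31 ± 0.09 and 0.24 ± 0.09, the small subunits Cox8a by 0.34 ± 0.08 and 0.31 ± 0.08 and Cox7b by 0.32 ± 0.09 and 0.29 ± 0.09, and Cox6b1, which lies where a pair of complexes meet, by 0.27 ± 0.08 and 0.30 ± 0.08. For Cox5b, Cox8a, Cox7b and Cox6b1 the rise in each comparison was lost when libraries were scaled by total counts. Cox5b missed the threshold against the isotype antibody without library PD-L1 antibody 3 or isotype 5 or 6 (log2 fold change 0.25 to 0.30), and against untreated wells without library PD-L1 antibody 1, 2 or 3, isotype 5 or untreated 7, 8 or 9 (log2 fold change 0.20 to 0.28). Cox7b did not pass against the isotype antibody without library PD-L1 antibody 1 or isotype 4 or 5 (log2 fold change 0.27 to 0.31), and against untreated wells without library PD-L1 antibody 1 or 2 (log2 fold change 0.24 to 0.31). Cox6b1 missed the threshold against the isotype antibody without library PD-L1 antibody 1 or isotype 5 (log2 fold change 0.24 to 0.26).

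The COX7A genes also shifted in their shares. Cox7a2 (chr9:79755241-79759853, minus strand) encodes the form found in most tissues, and Cox7a2l (chr17:83501917-83514333, minus strand) a related protein that links complex III to complex IV and is shortened in C57BL/6 mice. Cox7a2 had 47.8, 45.9 and 40.3 CPM in the PD-L1 antibody libraries, against 30.8, 28 and 30.7 CPM in the isotype libraries and 32.2, 37.1 and 38.6 CPM in the untreated libraries. It rose by 0.56 ± 0.10 against the isotype antibody (adjusted p 0.00101) and by 0.30 ± 0.10 against untreated wells (adjusted p 0.0271, not passed under total-count or upper-quartile scaling). Cox7a2l had 127.9, 118.6 and 106.2 CPM in the PD-L1 antibody libraries, against 156.7, 157.7 and 138 CPM in the isotype libraries and 128.4, 175.5 and 184.7 CPM in the untreated libraries. All 3 PD-L1 antibody values lay below the other 6, by a narrow margin in untreated library 7. Cox7a2l fell, with a log2 fold change of -0.45 ± 0.13 against untreated wells (adjusted p 0.0163), and was at -0.36 ± 0.13 against the isotype antibody (adjusted p 0.0519). The share of Cox7a2 in the family was 34.8 ± 0.324% in PD-L1 antibody wells, 21.9 ± 1.9% in isotype wells and 24 ± 1.86% in untreated wells (SD, n = 3 each), and that of Cox7a2l was 64 ± 0.524, 77 ± 2.01 and 74.9 ± 1.97%. The muscle isoform Cox7a1 made up 1.24 ± 0.229, 1.1 ± 0.235 and 1.16 ± 0.179%. Cox7a2l has 1 near-identical pseudogene copy. Cox7a2 missed the threshold against untreated wells without library PD-L1 antibody 1 or 2 or untreated 7 or 8 (log2 fold change 0.23 to 0.33). Cox7a2l did not pass against untreated wells without library PD-L1 antibody 3 or untreated 8 or 9 (log2 fold change -0.36 to -0.39).

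Cox4i1, the large regulatory subunit, had 194.4, 179.2 and 200.7 CPM in PD-L1 antibody wells, 224.6, 231.6 and 198.8 CPM in isotype wells and 205.9, 256.1 and 253.1 CPM untreated. It fell, with a log2 fold change of -0.31 ± 0.10 against untreated wells (adjusted p 0.0288) and did not pass against the isotype antibody (-0.19 ± 0.10). Its counterpart Cox4i2, known for its induction by low oxygen, was at most 0.2857 CPM in any library. Cox6a1 did not pass (0.17 ± 0.10 and -0.00 ± 0.10). Its muscle counterpart Cox6a2, though low, had 3.4, 4.13 and 3.39 CPM in the PD-L1 antibody libraries, against 2.05, 0.929 and 1.45 CPM in the isotype libraries and 2.48, 2.26 and 3.17 CPM in the untreated libraries. It rose by 0.93 ± 0.18 against the isotype antibody (adjusted p 0.00184) and did not pass against untreated wells (0.36 ± 0.18). Cox6a2 made up 1.47 ± 0.35% of the COX6A level per kb with the PD-L1 antibody, beside 0.671 ± 0.249% and 1.06 ± 0.202% in isotype and untreated wells. Cox4i1 missed the threshold against untreated wells without library PD-L1 antibody 1 or 2 or untreated 8 or 9 (log2 fold change -0.26 to -0.32). It also did so when corrected for length and GC content, without the filter on low values, and with edgeR on the deposited reads.

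Of the other tissue isoforms, Cox6b2, Cox7b2, Cox8b, Cox8c and Ndufa4l2 were, with Cox4i2, the 6 subunit genes not tested. Cox7b2 and Cox8c, known from testis, had coverage in 1 library each, Cox8b, known from muscle, in 3, and the rest stayed under 1 CPM in every library. Ndufa4 did not pass (-0.14 ± 0.11 and -0.14 ± 0.11), nor did Cox6c and Cox7c.

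**Figure D4:**
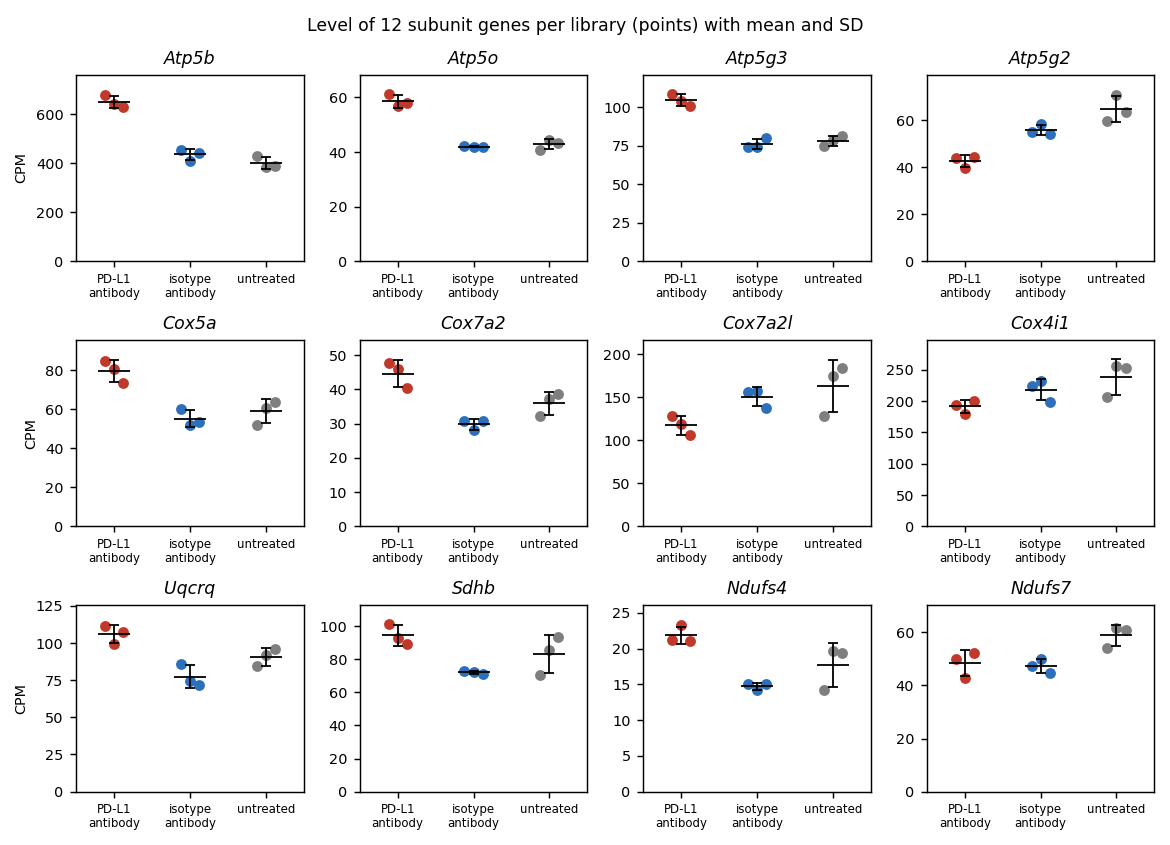
CPM (vertical axes, from 0) of 12 named subunit genes in each library (points), with the mean and SD of each group. Atp5b, Atp5o, Atp5g3, Cox5a and Cox7a2 are higher in all 3 PD-L1 antibody libraries than in the other 6, Atp5g2 and Cox7a2l are lower, and untreated library 7 is below libraries 8 and 9 for Cox4i1, Sdhb and Ndufs4.

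In complex III, 2 of 8 genes rose against the isotype antibody and 1 against untreated wells, and none fell. Uqcrq, a small membrane subunit, had the largest rise against the isotype antibody. Uqcrq had 111.3, 99.1 and 107.3 CPM in the PD-L1 antibody libraries, against 86, 74.3 and 71.6 CPM in the isotype libraries and 84.3, 91.7 and 95.7 CPM in the untreated libraries. The PD-L1 antibody libraries did not overlap with the others, and the log2 fold change was 0.45 ± 0.09 against the isotype antibody (adjusted p 0.00244) and 0.22 ± 0.09 against untreated wells, which did not pass (adjusted p 0.0658). Uqcrb, which helps bind ubiquinone, rose by 0.33 ± 0.10 against the isotype antibody (adjusted p 0.0237) but has 3 near-identical pseudogene copies. Uqcrc2, a core protein, passed against untreated wells only (0.26 ± 0.10, adjusted p 0.0456), and lost the call under 16 of 25 alternatives. The Rieske iron-sulphur protein Uqcrfs1, the core protein Uqcrc1, Uqcrh, Uqcr10 and Uqcr11 did not pass. Uqcrb missed the threshold against the isotype antibody without library PD-L1 antibody 1, 2 or 3 or isotype 5 (log2 fold change 0.27 to 0.33). It also did so under total-count and upper-quartile scaling, without the filter on low values, and with edgeR on the deposited reads. Uqcrc2 did not pass against untreated wells without library PD-L1 antibody 1 or 2, isotype 4, 5 or 6 or untreated 7, 8 or 9 (log2 fold change 0.17 to 0.31).

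In complex II, succinate dehydrogenase, Sdhb and Sdhd rose against the isotype antibody and no gene passed against untreated wells. Sdhb encodes the iron-sulphur subunit. Sdhb had 101.2, 93 and 89.3 CPM in the PD-L1 antibody libraries, against 73.2, 72.3 and 71.3 CPM in the isotype libraries and 70.7, 85.8 and 93.7 CPM in the untreated libraries. The PD-L1 antibody libraries lay above all isotype libraries and among the untreated ones, with log2 fold changes of 0.38 ± 0.10 (adjusted p 0.012) and 0.19 ± 0.10 (adjusted p 0.159). Sdhd, a membrane anchor, rose by 0.38 ± 0.10 (adjusted p 0.0144), beside 0.26 ± 0.10 against untreated wells. Both rises against the isotype antibody were lost under total-count scaling. Sdha, the flavoprotein that oxidises succinate, and Sdhc, the other anchor, did not pass (0.05 ± 0.07 and 0.02 ± 0.07 against the isotype antibody). Sdhb missed the threshold against the isotype antibody without library PD-L1 antibody 1 (log2 fold change 0.33). Sdhd did not pass against the isotype antibody without library PD-L1 antibody 1 or 2 or isotype 5 (log2 fold change 0.34 to 0.35).

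Complex I, NADH dehydrogenase, had 7 core subunits measured, the conserved part that holds the redox centres, and 28 accessory subunits. Of the core subunits, 1 rose against the isotype antibody, Ndufs3, and 1 fell against untreated wells, Ndufs7. Of the accessory subunits, 8 rose against the isotype antibody, and 4 rose and 2 fell against untreated wells. The core subunits summed to 313.6 ± 13.3 CPM in PD-L1 antibody wells, 303.6 ± 3.48 in isotype wells and 324.9 ± 26.8 in untreated wells (SD, n = 3 each).

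The largest rise in complex I against the isotype antibody was that of Ndufs4, an accessory subunit near the NADH-oxidising end whose loss is known to destabilise the complex. Ndufs4 had 21.2, 23.3 and 21.1 CPM in the PD-L1 antibody libraries, against 15, 14.2 and 15.1 CPM in the isotype libraries and 14.2, 19.7 and 19.4 CPM in the untreated libraries. The 3 PD-L1 antibody libraries exceeded the other 6, and the log2 fold change was 0.54 ± 0.12 against the isotype antibody (adjusted p 0.00542) and 0.30 ± 0.12 against untreated wells (adjusted p 0.0713). Ndufa11, in the membrane arm, rose in both comparisons, by 0.40 ± 0.09 (adjusted p 0.00449) and 0.30 ± 0.09 (adjusted p 0.0176), and so did Ndufb9, by 0.38 ± 0.09 and 0.31 ± 0.09, and Ndufa9, by 0.34 ± 0.08 and 0.23 ± 0.08. Ndufs5, Ndufc1, Ndufb6 and Ndufa3 passed against the isotype antibody alone, at 0.39 ± 0.08, 0.53 ± 0.14, 0.38 ± 0.10 and 0.30 ± 0.11. Ndufs3, a core subunit of the peripheral arm, rose by 0.34 ± 0.10 (adjusted p 0.0203). Ndufs3 and Ndufs5 each have 1 near-identical pseudogene copy. Ndufa10 passed only against untreated wells, at 0.32 ± 0.08 (adjusted p 0.00936). Under total-count scaling the rises of Ndufs3, Ndufs5, Ndufa3, Ndufa9, Ndufb6 and Ndufb9 against the isotype antibody were lost. So were those of Ndufa9, Ndufa10, Ndufa11 and Ndufb9 against untreated wells. Ndufs3 missed the threshold against the isotype antibody without library PD-L1 antibody 2 or 3 or isotype 5 or 6 (log2 fold change 0.28 to 0.33). Ndufa11 did not pass against untreated wells without library PD-L1 antibody 1 or 3 (log2 fold change 0.27 to 0.30). Ndufa9 missed the threshold against untreated wells without library PD-L1 antibody 1 or 2, isotype 4, 5 or 6 or untreated 7, 8 or 9 (log2 fold change 0.17 to 0.24). Ndufb9 did not pass against untreated wells without library PD-L1 antibody 1 (log2 fold change 0.27). Ndufc1 missed the threshold against the isotype antibody without library isotype 5 (log2 fold change 0.48). Ndufa3 did not pass against the isotype antibody without library PD-L1 antibody 1 or 3, isotype 4, 5 or 6 or untreated 8 or 9 (log2 fold change 0.22 to 0.35).

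The falls in complex I were all against untreated wells. Ndufs7 holds the iron-sulphur cluster that hands electrons to ubiquinone. Ndufs7 had 50, 43 and 52.4 CPM in the PD-L1 antibody libraries, against 47.5, 50.1 and 44.9 CPM in the isotype libraries and 54.3, 61.6 and 60.9 CPM in the untreated libraries. The PD-L1 antibody and isotype libraries overlapped and both lay below the untreated libraries, with a log2 fold change of -0.28 ± 0.09 (adjusted p 0.0327) against untreated wells and 0.03 ± 0.09 against the isotype antibody. Ndufb11 fell, with a log2 fold change of -0.36 ± 0.10 (adjusted p 0.0114) and Ndufa6 by -0.39 ± 0.14 (adjusted p 0.0427). The core subunits other than Ndufs7 and Ndufs3 did not pass in either comparison. Ndufs7 missed the threshold against untreated wells without library PD-L1 antibody 1 or 2 or untreated 8 or 9 (log2 fold change -0.20 to -0.30). Ndufa6 did not pass against untreated wells without library PD-L1 antibody 1, 2 or 3, isotype 4 or 5 or untreated 8 or 9 (log2 fold change -0.29 to -0.45). Corrected for length and GC content, Ndufs7 was at 0.01 against untreated wells. Ndufa6 also lost its call under that correction, and Ndufb11 kept its call.

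Between the isotype antibody and untreated wells no subunit gene passed in limma, and DESeq2, edgeR and limma-voom also called none. At an unadjusted p under 0.05 there were 9 subunit genes, of 1741 genes in all. Over all tested genes, 0.00729% rose and 0% fell. The median log2 fold change of the subunit genes was -0.10 and that of all tested genes was -0.00, with the isotype libraries above all untreated ones for 2 subunit genes (2.6%; 7.7% of all tested genes) and below them for 9 (11.7%; 5.58% of all tested genes). The calls in this comparison depended on untreated library 7. Without it, 14 subunit genes fell with the isotype antibody and none rose (6.88% of all tested genes fell and 9.59% rose), among them Sdhb, Ndufs4, Ndufs7, Cox7a2 and Uqcr10. Without it, 34 subunit genes rose and 2 fell with the PD-L1 antibody against the isotype antibody (21.4% of all tested genes rose and 21.7% fell), and 12 rose and 14 fell against untreated wells (24.6% and 23.7%).

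Genes that serve the same complexes gave a mixed picture (numbers are of tested genes). Beside this and the following lists, 18.2% of all tested genes rose and 18.2% fell against the isotype antibody. Against untreated wells 22% rose and 20.5% fell. For the assembly of complex IV, 7 of 21 rose against the isotype antibody and 6 rose and 2 fell against untreated wells. Under total-count scaling these became 4 rises and 2 falls, and 5 rises and 3 falls. By that scaling 11.4% of all tested genes rose and 30% fell against the isotype antibody. Against untreated wells 14.2% then rose and 29.6% fell, which holds beside the following lists too. Cox17, the copper chaperone of the complex, averaged 50.7 ± 2.37 CPM in PD-L1 antibody wells, 28.8 ± 2.43 in isotype wells and 30.5 ± 1.11 in untreated wells (SD, n = 3 each). It rose by 0.80 ± 0.09 (adjusted p 3.75e-05) and 0.72 ± 0.09 (adjusted p 7.47e-05). Coa5 rose by 0.71 ± 0.09 in each comparison and Cox18, which inserts a mitochondrially made subunit, by 0.74 ± 0.14 and 0.82 ± 0.14. Assembly factors of complex I had 1 rise and 1 fall among 15 in each comparison, Ndufaf3 and Ndufaf7. Those of complexes II and III had 1 rise among 10 against the isotype antibody, Uqcc2, and 2 rises and 4 falls against untreated wells. By total counts the factors of complex I had 1 rise and 1 fall, and 1 rise and 2 falls. Those of complexes II and III then had 1 rise and 3 falls, and 1 rise and 5 falls. Ndufaf7 missed the threshold against the isotype antibody without library PD-L1 antibody 2 or isotype 5 (log2 fold change -0.38 to -0.43).

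The inhibitor of the ATP synthase and one of its assembly factors fell. Atpif1, whose protein blocks ATP hydrolysis by the synthase, had 55.8, 58 and 58.3 CPM in the PD-L1 antibody libraries, against 89.1, 95.6 and 98.7 CPM in the isotype libraries and 88.3, 102.2 and 106.4 CPM in the untreated libraries. Without overlap, it fell, with a log2 fold change of -0.71 ± 0.08 (adjusted p 7.24e-05) and -0.77 ± 0.08 (adjusted p 3.69e-05). Atpaf1, which helps fold the beta subunit into the head, fell, with a log2 fold change of -0.60 ± 0.13 and -0.73 ± 0.13. These were 2 of 4 tested genes in each comparison, and Atpaf2 and Tmem70 did not pass.

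Cycs, cytochrome c, which carries electrons from complex III to complex IV, had 106.1, 134.8 and 111.5 CPM in the PD-L1 antibody libraries, against 55.2, 44.3 and 57.5 CPM in the isotype libraries and 51.5, 52.1 and 57 CPM in the untreated libraries. It rose by a log2 fold change of 1.15 ± 0.12 (adjusted p 2.21e-05) and 1.11 ± 0.12 (adjusted p 2.66e-05). Of the 6 electron carriers and subunits outside the symbol rule, 3 rose and 2 fell against the isotype antibody, and 3 rose and 1 fell against untreated wells. The rises were those of Cycs, Ndufab1 and Usmg5 in both comparisons. By total counts the 6 genes had 2 rises and 2 falls, and 1 rise and 2 falls. Ndufab1 missed the threshold against the isotype antibody without library isotype 5 (log2 fold change 0.34), and against untreated wells without library PD-L1 antibody 1 or 3 or untreated 8 or 9 (log2 fold change 0.29 to 0.34). Usmg5 did not pass against untreated wells without library PD-L1 antibody 1 or 2 (log2 fold change 0.39 to 0.44). Under total-count scaling Ndufab1 lost its call in both comparisons and Usmg5 its call against untreated wells.

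Of 18 genes of the tricarboxylic acid cycle and pyruvate dehydrogenase, which feed the chain with electrons, 5 rose and 3 fell against the isotype antibody. Against untreated wells 8 rose and 4 fell. Of all tested genes, 18.2% rose and 18.2% fell in the first comparison, and 22% rose and 20.5% fell in the second. Under total-count scaling the 18 genes had 2 rises and 4 falls, and 4 rises and 5 falls. By that scaling 11.4% of all tested genes rose and 30% fell in the first comparison, and 14.2% rose and 29.6% fell in the second. Mdh2, malate dehydrogenase, rose by 0.68 ± 0.08 (adjusted p 5.16e-05) and 0.82 ± 0.08 (adjusted p 1.36e-05). Suclg2, a subunit of succinyl-CoA ligase, fell, with a log2 fold change of -0.61 ± 0.14 and -0.69 ± 0.14. Glycolysis, by contrast, had 14 of 17 genes that rose and none that fell against the isotype antibody, and 15 rises against untreated wells, with median log2 fold changes of 1.50 and 1.60. Under total-count scaling 1 glycolysis gene fell in each comparison. Of 10 tested genes that act on respiration in activated macrophages, 5 rose and 4 fell against the isotype antibody, and 5 rose and 3 fell against untreated wells. Acod1, whose product itaconate inhibits complex II, rose by 4.23 ± 0.34 and 4.41 ± 0.34. Nos2, whose nitric oxide inhibits complex IV, rose by 5.35 ± 0.33 and 5.19 ± 0.33. Among the fallers were Pdk2, a kinase that inhibits pyruvate dehydrogenase, with log2 fold changes of -0.92 ± 0.14 and -1.14 ± 0.14, and Ucp2, an inner membrane carrier, with -0.76 ± 0.11 and -0.75 ± 0.11.

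**Figure D5:**
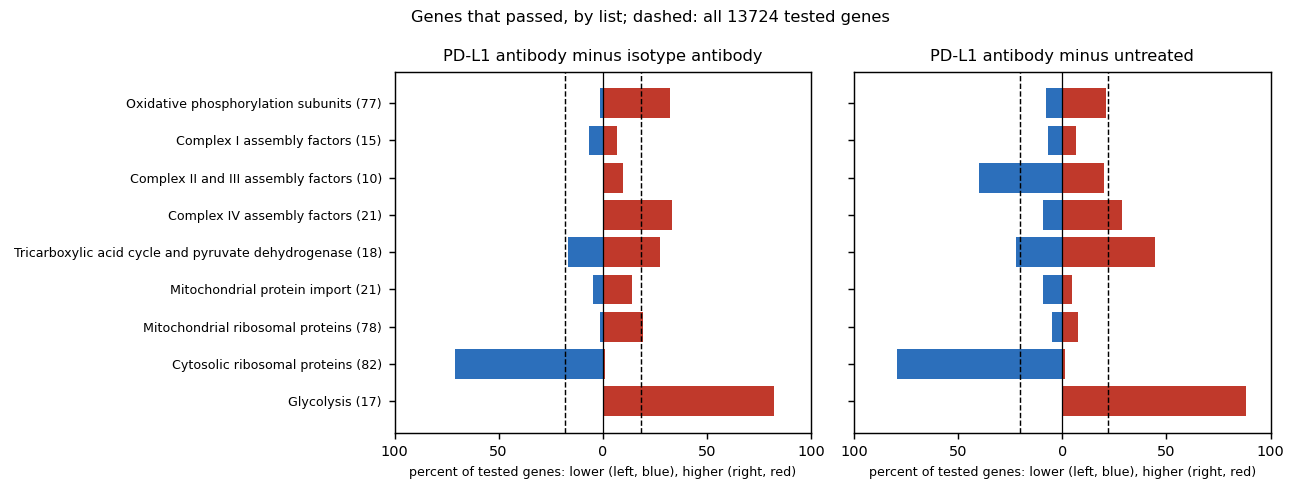
Percent of tested genes that rose (right, red) or fell (left, blue) in each list, for PD-L1 antibody minus isotype antibody (left panel) and PD-L1 antibody minus untreated (right panel); the number tested is in brackets and dashed lines mark all 13724 tested genes. Glycolysis (14 of 17 and 15 of 17 higher) and cytosolic ribosomal proteins (58 of 82 and 65 of 82 lower) lie far outside the dashed lines, and the oxidative phosphorylation subunits lie nearer to them.

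Markers of other marrow cells moved with the same comparisons, and their part in the subunit results was not tested. Among all tested genes, 18.2% rose and 18.2% fell against the isotype antibody, and 22% rose and 20.5% fell against untreated wells. Of 9 tested neutrophil and precursor markers 5 fell against the isotype antibody and 7 against untreated wells. They summed to 356.2 to 500.6 CPM in PD-L1 antibody libraries, 686.4 to 1285 CPM in isotype libraries and 516.5 to 716.3 CPM in untreated libraries. Ly6g, the defining one, was at or under 0.3251 CPM in every library. Of 8 dendritic cell markers 1 rose and 5 fell in each comparison, with sums of 428.6 to 490.2, 363 to 574.3 and 305.5 to 562.8 CPM for PD-L1 antibody, isotype and untreated wells. Of 4 tested T and B cell markers 1 and 2 fell, with sums of 3.134 to 5.741, 5.09 to 13.96 and 11.75 to 24.34 CPM in the same order. Of 5 erythroid and megakaryocyte markers 1 rose and 1 fell, and 1 rose and 2 fell, with sums of 261.5 to 396, 74.68 to 118.6 and 128.5 to 161.3 CPM; Pf4 was the riser, and Klf1, which marks red cell precursors, was at or under 0.2847 CPM in every library. Of 5 stromal markers 3 rose, and 1 rose and 1 fell, with sums of 52.89 to 72.63, 35.07 to 49.03 and 53.23 to 76.61 CPM. Of 4 mast cell and basophil markers none passed, with sums of 17.49 to 24.72, 19.13 to 36.67 and 20.77 to 31.23 CPM. Of the 10 macrophage markers 4 rose and 1 fell against the isotype antibody, and 4 rose and 2 fell against untreated wells. Adgre1, Itgam, Fcgr1 and Cd14 rose in both comparisons, and Cd68 fell in both.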

How the data were processed

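Total RNA of 9 mouse macrophage libraries was enriched with oligo(dT) beads and sequenced in pairs of 150-base reads, per the labels' protocols. Partek and STAR are named in the submitters' processing notes, with no version or role, and the genome build is not given in the sources used here. All 83 subunit genes overlapped the gene of that symbol in RefSeq's gene table on GRCm38.p6, and 68 were matched in its promoter table. The deposited files list, per the file headers, for each RefSeq transcript a read count, the average coverage (a signal per exonic base), the percent of bases covered, and the GC percent. The deposited read counts span whole genomic regions, introns included, so they served only for alternatives. The value used was exonic read equivalents (average coverage times exon length divided by 150), for 1 transcript per symbol, the one with the highest mean coverage. They came to 67.6 to 70.5% of the reads. Intervals of counting error are not given, since these reads carry no molecular identifiers and PCR copies would count more than once, and depth limits low genes most.

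Genes passing edgeR's filterByExpr were scaled by TMM, turned into log2(CPM + 1), which understates changes of low genes, and fitted in limma with a trended variance over all 9 libraries, 1 mean per group. Tests were two-sided, with Benjamini-Hochberg adjustment over 13724 genes and a threshold of 0.05. The members and gene lists were chosen with earlier results of these data known, so lists are described by counts and medians only. The text names, per comparison and complex, up to 3 called genes of at least 5 CPM with the lowest p in each direction, the highest and lowest per kilobase, all isoform families, called genes against the direction of their complex, and 2 to 4 genes per list. All other genes that passed are named too, chosen after their values were seen. The deposited names put PD-L1 antibody library 2 on lane 4, whereas all other libraries carry lane 1, so lane could not be fitted. A copy is a GENCODE M21 transcript of another gene matching at 97% over 150 bases. There were 14 subunit genes with such a copy and 22 that share exonic bases with another gene. A few genes are counted but not reported by name here. Promoters are from RefSeq's table on GRCm38.p6. Alternatives were other scalings, filters, pseudocounts (0.1 and 5), tools (edgeR, DESeq2, limma-voom), transcripts, a correction for length and GC, a threshold of 0.01, and the loss of any 1 library. Scripts were tested on simulated data. Fits ran in edgeR 4.0.16, limma 3.58.1 and DESeq2 1.42.0 under R 4.3.3. Tables and plots came from Python 3.11.15, using numpy 2.4.6, pandas 2.3.3 and matplotlib 3.10.9.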

Additional observations from a re-analysis of the deposited data

How the results depend on the processing

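No paired analysis was possible because the groups share no replicate numbers. Against the isotype antibody, the 26 subunit genes called became 14 (13 higher) with edgeR on deposited reads of 1 transcript or summed over transcripts, 42 (40 higher) with a length and GC correction (22% of all tested genes higher and 19.2% lower), and 15 (14 higher) at a threshold of 0.01. The 25 rises became 10 under total-count scaling, with 9 falls in place of 1 (11.4% of all tested genes higher and 30% lower). Falls numbered 2 under upper-quartile scaling (14.9% of all tested genes higher and 21.8% lower), a filter at 5 CPM, DESeq2, the length and GC correction, and a fit of only the 2 groups. The median of 0.18 became 0.00 under total-count scaling, 0.11 under upper-quartile scaling and 0.22 with the length and GC correction. Against untreated wells, the 22 calls became 14 with no filter, 12 with edgeR on deposited reads in either form, 41 with the length and GC correction (24.4% of all tested genes higher and 21.1% lower) and 8 at 0.01. The 16 rises became 4 under total-count scaling, 7 under upper-quartile scaling (17.3% of all tested genes higher and 25.3% lower), 10 with no filter, 7 and 8 with edgeR on deposited reads, 38 with the length and GC correction and 7 at 0.01. The 6 falls became 19, 11, 3 and 1 under total-count scaling, upper-quartile scaling, the length and GC correction and the threshold of 0.01. By total counts 14.2% of all tested genes were higher and 29.6% lower against untreated wells. The median of 0.07 became -0.08 under total-count scaling and 0.19 with the length and GC correction. The cause of these changes was not tested. Here and in the next paragraph, a count without a share of all tested genes shows only how the calls depend on the setting.

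Leaving out 1 library at a time gave 16 to 36 calls against the isotype antibody (15 to 34 rises, 1 to 2 falls, medians 0.14 to 0.19), fewest without isotype library 5. Against untreated wells it gave 10 to 26 calls (7 to 13 rises, 2 to 14 falls, medians 0.01 to 0.11). Without PD-L1 antibody library 1 there were 7 rises and 3 falls, without PD-L1 antibody library 2 there were 3 falls, and without untreated libraries 7, 8 and 9 there were 14, 2 and 2. Between the isotype antibody and untreated wells it gave 0 to 14 calls (0 to 0 rises, 0 to 14 falls, medians -0.18 to -0.06). Of the values of single genes, 3966 kept their direction and side of the threshold, 269 lost a call, 54 gained one and 2 reversed: with the length and GC correction, Cox6a1 was 0.27 and Ndufs7 0.01 against untreated wells. Atp5b, Atp5o, Atp5g3, Atp5g2 and Cox5a kept their calls under all 25 alternatives in both comparisons with the PD-L1 antibody, and Cox7a2, Ndufs4, Ndufa11 and Uqcrq did so against the isotype antibody.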

Other observations

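Counts of genes that make or import mitochondrial proteins are given beside those of the cytosolic ribosome. Of 78 mitochondrial ribosomal proteins, 15 rose and 1 fell against the isotype antibody (18.2% of all tested genes rose and 18.2% fell). Against untreated wells 6 rose and 4 fell (22% of all tested genes rose and 20.5% fell). Under total-count scaling there were 4 rises and 11 falls against the isotype antibody, where 11.4% of all tested genes rose and 30% fell. Against untreated wells there were then 4 rises and 20 falls, where 14.2% of all tested genes rose and 29.6% fell. Of 82 cytosolic ribosomal proteins, 1 rose and 58 fell against the isotype antibody, and 1 rose and 65 fell against untreated wells. Of 21 import genes, 3 rose and 1 fell, and 1 rose and 2 fell. By total counts these became 1 rise and 2 falls, and 1 rise and 5 falls. Timm17a, a channel subunit of the inner membrane, rose by 0.57 ± 0.09 (adjusted p 0.00037) and 0.56 ± 0.09 (adjusted p 0.000358), and Tomm20, an outer membrane receptor, fell, with a log2 fold change of -0.40 ± 0.10 (adjusted p 0.0105) and -0.55 ± 0.10 (adjusted p 0.00146). No test of a difference between these lists was made.

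Of 16 tested regulators of mitochondrial biogenesis, 2 rose and 2 fell against the isotype antibody, and 3 rose and 1 fell against untreated wells. Of all tested genes, 18.2% rose and 18.2% fell in the first comparison, and 22% rose and 20.5% fell in the second. By total counts the regulators had 1 rise and 3 falls, and 2 rises and 4 falls. Of all tested genes 11.4% then rose and 30% fell, and 14.2% rose and 29.6% fell. Ppargc1b, a coactivator of respiratory genes, averaged 8.77 ± 0.532 CPM in PD-L1 antibody wells, 4.74 ± 0.986 in isotype wells and 4.53 ± 0.805 in untreated wells (SD, n = 3 each), and rose by 0.78 ± 0.16 (adjusted p 0.00273) and 0.83 ± 0.16 (adjusted p 0.00159). Tfb2m, a mitochondrial transcription factor, fell, with a log2 fold change of -0.39 ± 0.11 (adjusted p 0.0193) and -0.40 ± 0.11 (adjusted p 0.0141). It lost the first call without PD-L1 antibody library 2 or isotype library 6 (-0.31 to -0.35), and the other without PD-L1 antibody library 2 or untreated library 8 (-0.35 to -0.36). Of 13 ubiquinone synthesis genes, 3 rose and 1 fell, and 2 rose and 1 fell. Of 9 mitochondrial antioxidant genes, 2 rose and 2 fell, and 2 rose and 3 fell. By total counts the ubiquinone genes had 2 rises and 1 fall, and 2 rises and 2 falls. The antioxidant genes then had 2 rises and 4 falls, and 2 rises and 5 falls. Prdx5, a peroxiredoxin, rose by 1.90 ± 0.10 and 1.76 ± 0.10, and Sod1, the copper-zinc superoxide dismutase, fell, with a log2 fold change of -0.76 ± 0.08 and -0.74 ± 0.08.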
